A study of Homo sapiens with 36 samples.

Results

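Transporters of the ATP-binding cassette (ABC) family that export drugs, conjugates or nucleotides were examined in neuroblastoma cells transfected with siRNA against HDAC11. The set holds 8 genes, of which ABCC1, ABCC2, ABCC3, ABCC4, ABCC5 and ABCC10 belong to the ABCC family of multidrug resistance-associated proteins, while ABCB1 and ABCB6 belong to the ABCB family. A member was any probe whose gene symbol in the array annotation was one of these names. This gave 11 probes of 7 genes, among 47320 probes tested and 20045 genes named, and 37 other ABC genes were measured beside them. ABCC1 was not analysed here, because the annotation used pairs no probe with its symbol or Entrez ID. The genes were chosen by name with results of the same arrays in view, the log2 differences between HDAC11 siRNA and control, in which ABCC5 was higher and ABCC3 lower. Differences between HDAC11 siRNA and control are therefore given for these genes as a description, without p-values. Tests of members are given for 2 questions that did not enter the choice, the difference between the cell lines in control cells and the difference between times in control cells.

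ABC transporters use the energy of ATP hydrolysis to move substrates across membranes, with paired nucleotide-binding domains inside the cell and membrane-spanning domains that form the path. ABCB1, also called P-glycoprotein or MDR1, pumps many uncharged and cationic drugs out of cells, including anthracyclines and vinca alkaloids used against neuroblastoma. The ABCC exporters carry mostly organic anions such as glutathione, glucuronide and sulphate conjugates, and ABCC4 and ABCC5 also carry cyclic nucleotides and nucleotide analogues. In neuroblastoma, transporters of the ABCC family are known as genes whose levels have been linked with MYCN and with outcome.

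Total RNA was profiled on 36 bead arrays, 18 each for BE(2)-C and IMR-32, 2 established human neuroblastoma lines with MYCN amplification. Cells of each line were transfected with HDAC11 siRNA no. 1, with HDAC11 siRNA no. 2 or with the negative control siRNA, each at 25 nM, and harvested after 42, 48 and 54 h. Each of the 18 combinations held 2 replicates, so that every siRNA had 6 arrays per cell line. The sources call the replicates biological without saying whether they were separate cultures, so p-values measure only the spread between these samples.

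The values are bead intensities, quantile-normalized over all arrays and given as normalized signals on the linear scale, with differences on the log2 scale of the same values. A signal was called detected where its deposited detection p was under 0.01 and it exceeded the centre of that array's background, which was 95.3 to 122 before normalization. Per array, 36.1% to 41.8% of probes were detected, and replicates correlated at r = 0.985 to 0.994. Each of the 36 arrays correlated best with an array that had the same line and siRNA. Of 8 measured markers of adrenergic neuroblasts, 8 were detected on all BE(2)-C arrays and 7 on all IMR-32 arrays, the exception being DBH in IMR-32. Of 8 measured markers of other cells, ALB was detected on every array, while PECAM1 and S100B were detected on no array of either line. COL1A2, COL3A1 and PTPRC were detected on no BE(2)-C array and on some IMR-32 arrays. The others were detected on some arrays of each line. Of the 8, 2 were detected on 18 or more of the 36 arrays. In cells of a bulk culture, a lower signal can mean less RNA per cell or fewer cells that carry it, and these cannot be told apart.

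The targeted gene could not be followed on these arrays. The study itself reported lower HDAC11 mRNA by qRT-PCR and lower tagged HDAC11 protein by western blotting in both lines. The single HDAC11 probe (ILMN_1684690) was detected on 0 of 6 arrays with siRNA no. 1, 0 of 6 with siRNA no. 2 and 0 of 6 with control siRNA in BE(2)-C, and on 0 of 6, 0 of 6 and 2 of 6 arrays in IMR-32. Its normalized signals were 97.7 to 124 with siRNA no. 1, 96.7 to 129 with siRNA no. 2 and 104 to 127 with control siRNA in BE(2)-C. HDAC11 is the class IV histone deacetylase, encoded on chromosome 3. The study's methods place siRNA no. 1 in exon 8 and give for siRNA no. 2 the 21 bases below, shown because several transporters had different signals with the siRNAs. Whether the targets lie in different parts of the transcript was not analysed here.
HDAC11 siRNA no. 2 target: gcgagacttcatggacgacaa
MYCN, the amplified oncogene of both lines, gave signals of 19621 to 24083 with siRNA no. 1, 20766 to 24083 with siRNA no. 2 and 20245 to 22938 with control siRNA in BE(2)-C on its main probe (ILMN_2219767), and 19116 to 23649, 20285 to 23233 and 18574 to 19815 in these groups of IMR-32.

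The RefSeq promoter table (GRCh38.p14) held 8 promoters of 6 of the 8 genes, each running over 250 bases before to 50 bases after a gene start. Those of ABCC5, ABCC4 and ABCB1 are printed because probes of these genes stood above control in BE(2)-C with at least 1 siRNA, and because ABCB1 has 2 listed starts. Capitals mark matches, on either strand, of the E-box CACGTG that MYC and MYCN bind, the GC box GGGCGG, the CCAAT box CCAAT and the TATA box TATAAA. Of all 35116 promoters in the table, 7.26% held the E-box, 45% the GC box, 34.6% the CCAAT box and 11.5% the TATA box. No match overlapped another.
ABCC5, chr3:184017835-184018134, minus strand: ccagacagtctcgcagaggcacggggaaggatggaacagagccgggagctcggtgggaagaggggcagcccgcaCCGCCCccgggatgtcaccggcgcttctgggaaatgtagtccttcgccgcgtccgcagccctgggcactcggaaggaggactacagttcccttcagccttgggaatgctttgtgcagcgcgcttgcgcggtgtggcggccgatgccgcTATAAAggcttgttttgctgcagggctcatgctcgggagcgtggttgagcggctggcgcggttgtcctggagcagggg
ABCC4, chr13:95301402-95301701, minus strand: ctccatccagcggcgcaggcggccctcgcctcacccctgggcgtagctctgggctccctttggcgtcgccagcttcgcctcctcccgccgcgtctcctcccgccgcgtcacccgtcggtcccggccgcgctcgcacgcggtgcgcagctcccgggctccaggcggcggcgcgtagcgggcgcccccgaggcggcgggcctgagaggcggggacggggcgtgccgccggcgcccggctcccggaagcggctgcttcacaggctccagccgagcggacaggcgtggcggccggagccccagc
ABCB1 upstream start, chr7:87713246-87713545, minus strand: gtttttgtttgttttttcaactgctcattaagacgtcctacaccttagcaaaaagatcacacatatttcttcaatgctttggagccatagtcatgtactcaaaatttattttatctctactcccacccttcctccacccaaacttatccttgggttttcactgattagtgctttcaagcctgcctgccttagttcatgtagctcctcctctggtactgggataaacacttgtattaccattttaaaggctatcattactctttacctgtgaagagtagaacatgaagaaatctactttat
ABCB1 downstream start, chr7:87600835-87601134, minus strand: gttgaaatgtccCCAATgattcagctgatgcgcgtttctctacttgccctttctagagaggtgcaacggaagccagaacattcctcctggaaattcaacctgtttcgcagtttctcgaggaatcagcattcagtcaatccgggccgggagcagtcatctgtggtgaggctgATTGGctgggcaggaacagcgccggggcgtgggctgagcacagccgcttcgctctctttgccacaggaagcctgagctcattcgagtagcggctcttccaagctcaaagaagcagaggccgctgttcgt
The ABCC5 promoter held a TATA box beginning 28 bases before the start and a GC box beginning 176 bases before it. The ABCC4 promoter, 79.7% G or C, held none of the 4 motifs, nor did the upstream ABCB1 promoter, at 37.7% G or C. The downstream ABCB1 promoter held CCAAT boxes beginning 79 and 238 bases before the start. An E-box was found in the ABCB6 promoter and in 1 of the 2 ABCC10 promoters. These are matches of letters, and no binding was measured.

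Described by the main probe of each gene, which is the probe with the highest mean log2 signal, 2 of 7 members had all 6 arrays above every control array in BE(2)-C with siRNA no. 1 (ABCB1 and ABCC4), 1 had all 6 below (ABCC3) and 4 overlapped. For all 20045 genes, 24.4% had an adjusted p below 0.05 by limma, 12.9% above control and 11.5% below. BE(2)-C with siRNA no. 2 had 1 above (ABCC5), 3 below (ABCC3, ABCC4 and ABCB6) and 3 overlapping, beside 13.9% of all genes past the test, 6.39% above and 7.54% below. In IMR-32 there were 2 above with siRNA no. 1 (ABCC3 and ABCC10), 0 below and 5 overlapping, beside 24.1%, 13.3% above and 10.9% below. For siRNA no. 2 there the counts were 1 above (ABCC5), 0 below and 6 overlapping, beside 13.3%, 6.02% above and 7.28% below. The counts are of arrays without overlap and the shares are of limma calls, and the share of all genes without overlap was not computed. Since these contrasts also entered the choice of the genes, nothing is read from the counts against the shares. The median log2 difference of the 7 genes was 0.06 and -0.14 with siRNA no. 1 and no. 2 in BE(2)-C, and 0.04 and -0.02 in IMR-32, beside medians over all genes of 0.00 to 0.01. The plot of log2 differences shows all 11 probes, and only the ABCC5 probes had values above 0 in all 4 contrasts.

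**Figure D1:**
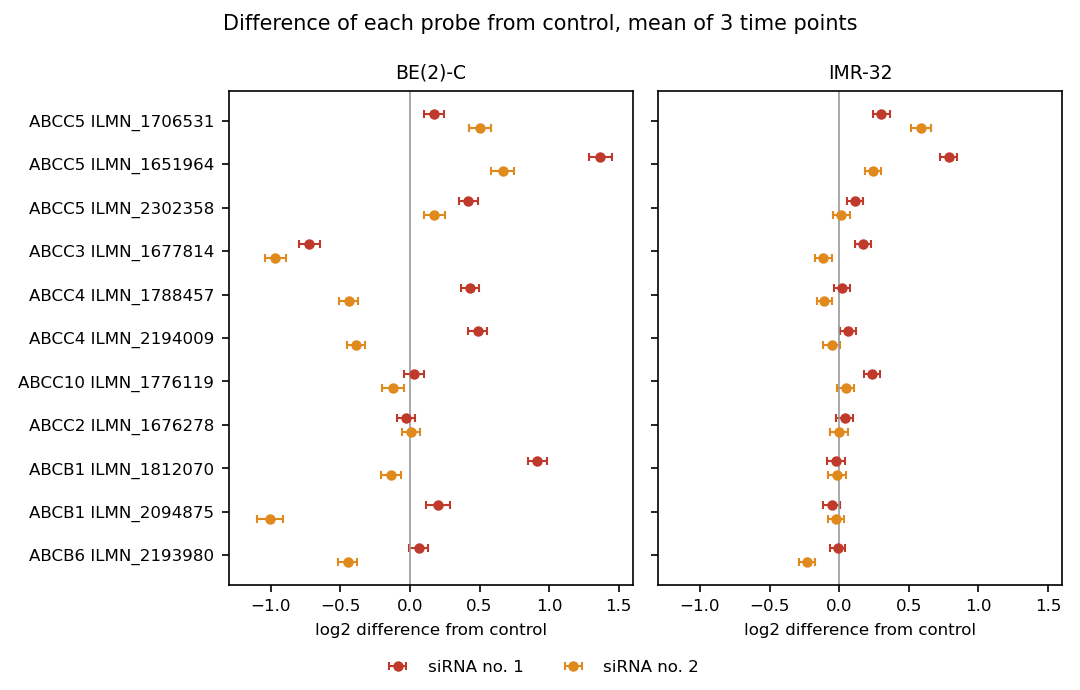
Log2 difference between each HDAC11 siRNA and the control siRNA, averaged over 42, 48 and 54 h, for the 11 probes in BE(2)-C (left) and IMR-32 (right). Points are limma estimates from 6 against 6 arrays and bars are standard errors. ABCC5 (ILMN_1651964) in BE(2)-C with siRNA no. 1 lay at 1.37 and ABCB1 (ILMN_2094875) in BE(2)-C with siRNA no. 2 at -1.01.

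ABCC5, also called MRP5, exports cyclic nucleotides and nucleotide analogues and is placed at chromosome 3, 183919934 to 184017884 in GRCh38.p14. Its signals were higher with both HDAC11 siRNAs than with control siRNA in both cell lines, but the probes ranked the siRNAs differently. The main probe (ILMN_1706531, designed on NM_005688) gave 1036 and 1136 at 42 h, 947 and 1003 at 48 h, and 1015 and 1093 at 54 h in BE(2)-C with siRNA no. 1. With siRNA no. 2 it gave 1189.7 and 1463 at 42 h, 1308 and 1221 at 48 h, and 1242 and 1410.1 at 54 h, and with control siRNA 1025 and 1018 at 42 h, 867 and 954 at 48 h, and 730.5 and 955 at 54 h. All 6 siRNA no. 2 arrays lay above every control array, while the siRNA no. 1 arrays overlapped the control arrays. The log2 difference from control was 0.17 ± 0.07 (SE, 6 against 6 arrays) with siRNA no. 1 and 0.50 ± 0.08 with siRNA no. 2.

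In IMR-32 the main ABCC5 probe gave 520.5 and 467 at 42 h, 518 and 482 at 48 h, and 592 and 557 at 54 h with siRNA no. 1. It gave 721 and 566 at 42 h, 662 and 526 at 48 h, and 749 and 618 at 54 h with siRNA no. 2 and 500.0 and 498 at 42 h, 386 and 331 at 48 h, and 453 and 395 at 54 h with control siRNA. The arrays of siRNA no. 2 did not overlap the control arrays and those of siRNA no. 1 did, the control signals at 42 h being the highest of that group. The log2 differences were 0.30 ± 0.06 with siRNA no. 1 and 0.59 ± 0.07 with siRNA no. 2. By time, siRNA no. 1 differed from control by -0.02 at 42 h, 0.48 at 48 h and 0.44 at 54 h, and siRNA no. 2 by 0.36, 0.72 and 0.69 at the same times. For BE(2)-C the same values were 0.09, 0.10 and 0.33 with siRNA no. 1. For siRNA no. 2 they were 0.37, 0.47 and 0.66. On this probe the difference at 54 h exceeded that at 42 h in all 4 contrasts. Both siRNAs of a line share its control arrays. From 42 to 54 h the mean control signal went from 1021 to 843 in BE(2)-C and from 499 to 424 in IMR-32. In BE(2)-C it went from 1086 to 1054 with siRNA no. 1 and stayed at 1326 with siRNA no. 2. In IMR-32 it went from 494 to 575 with siRNA no. 1 and from 643 to 684 with siRNA no. 2.

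A further ABCC5 probe (ILMN_1651964), designed on the record NM_001023587, placed siRNA no. 1 above siRNA no. 2. Its BE(2)-C signals were 1029 and 1036 at 42 h, 1007 and 1097 at 48 h, and 1005 and 1153 at 54 h with siRNA no. 1. With siRNA no. 2 it gave 688 and 789 at 42 h, 674 and 601 at 48 h, and 542 and 613 at 54 h, and with control siRNA 407 and 393 at 42 h, 459 and 390.5 at 48 h, and 482 and 334 at 54 h. The 3 sets of arrays did not overlap, with siRNA no. 1 on top and control at the bottom. The log2 differences from control were 1.37 ± 0.08 and 0.66 ± 0.08 with siRNA no. 1 and no. 2, and the siRNAs themselves differed by 0.70 ± 0.07. In IMR-32 the lowest, median and highest signals were 542, 693 and 730.5 with siRNA no. 1, 417, 458 and 496 with siRNA no. 2 and 346, 384 and 434 with control siRNA. There too the siRNA no. 1 arrays lay above all others, while siRNA no. 2 overlapped control at its lower end. The log2 differences from control were 0.79 ± 0.06 and 0.24 ± 0.06. At 42, 48 and 54 h in BE(2)-C, siRNA no. 1 differed from control by 1.37, 1.31 and 1.42, and siRNA no. 2 by 0.88, 0.59 and 0.52, larger at 42 h than at 54 h. For IMR-32 the differences were 0.69, 0.79 and 0.88 for siRNA no. 1, against 0.19, 0.21 and 0.33 for siRNA no. 2.

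The third ABCC5 probe (ILMN_2302358), designed on the same record, was near the background. It was detected on 6 of 6 arrays with siRNA no. 1, on 3 of 6 with siRNA no. 2 and on 1 of 6 with control siRNA in BE(2)-C, and on no array of IMR-32. Its signals in BE(2)-C were 136, 144 and 160.3 (lowest, median and highest) with siRNA no. 1, 109, 126 and 139 with siRNA no. 2 and 103, 106 and 127 with control siRNA. The siRNA no. 1 arrays lay above every control array, with a log2 difference of 0.42 ± 0.07, and siRNA no. 2 overlapped them, with 0.17 ± 0.08. Over the 18 group means, each centred on its cell line, this probe and ILMN_1651964 correlated at r = 0.889, whereas the main probe correlated with them at r = 0.157 and 0.244. The 18 points share control arrays and normalization, and which transcripts each probe reads was not analysed here.

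**Figure D2:**
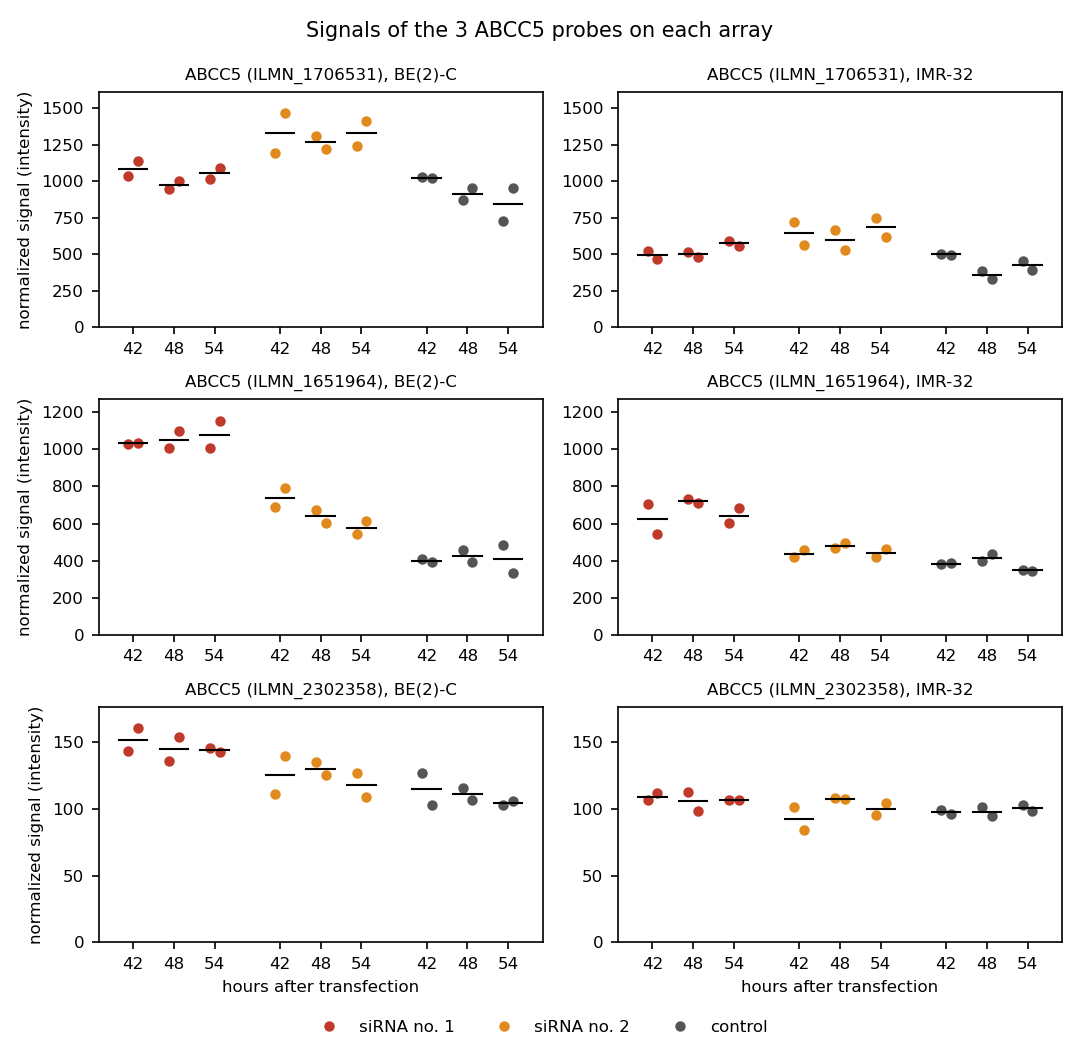
Normalized signal (linear intensity, from 0) of the 3 ABCC5 probes on each of the 36 arrays, with siRNA no. 1, siRNA no. 2 and control siRNA from left to right and hours after transfection within each. Points are single arrays and lines are means of 2 arrays. In BE(2)-C (left) the main probe was highest with siRNA no. 2 and the other 2 probes with siRNA no. 1.

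The direct comparison of the siRNAs gave the same split. With siRNA no. 1 against siRNA no. 2, the main ABCC5 probe differed by -0.33 ± 0.07 in BE(2)-C and -0.29 ± 0.07 in IMR-32, and ILMN_1651964 by 0.70 ± 0.07 and 0.54 ± 0.06. From high to low on the main probe, the order was siRNA no. 2, siRNA no. 1 and control siRNA in BE(2)-C and then the same in IMR-32, with mean signals of 1306 ± 109.8, 1038 ± 67.3, 925 ± 111, 640.4 ± 87.1, 523 ± 46.4 and 427 ± 67.8 (SD, n = 6 each). Every neighbour in that order overlapped the next except siRNA no. 2 and siRNA no. 1 in BE(2)-C.

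ABCC3, also called MRP3, exports glucuronide conjugates and bile salts and lies at chromosome 17, 50634881 to 50692253. Its signals were lower with both HDAC11 siRNAs than with control siRNA in BE(2)-C, while IMR-32 cells held it near the background. The only probe (ILMN_1677814) gave, in BE(2)-C, 282 and 296 at 42 h, 239.8 and 247 at 48 h, and 247 and 188 at 54 h with siRNA no. 1. It gave 249 and 207 at 42 h, 202 and 218 at 48 h, and 198 and 183 at 54 h with siRNA no. 2 and 409 and 398 at 42 h, 368 and 441 at 48 h, and 380.2 and 459.8 at 54 h with control siRNA. Neither siRNA overlapped the control arrays. The log2 differences were -0.72 ± 0.08 with siRNA no. 1 and -0.97 ± 0.07 with siRNA no. 2, which left 0.606 and 0.511 of the control signal. No background was subtracted for these values, and the mean background centre of the groups was 106 to 108. The fractions are thus of signal with its background and not of RNA. By time the log2 differences were -0.48, -0.73 and -0.96 with siRNA no. 1 at 42, 48 and 54 h, and -0.83, -0.94 and -1.14 with siRNA no. 2. The difference at 54 h minus that at 42 h was -0.48 ± 0.19 with siRNA no. 1 and -0.31 ± 0.18 with siRNA no. 2.

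In IMR-32 the ABCC3 signals were 126, 129 and 140.0 (lowest, median and highest) with siRNA no. 1, 91.6, 109 and 116 with siRNA no. 2 and 107, 118 and 124 with control siRNA. The probe was detected on 5 of 6, 0 of 6 and 1 of 6 of these arrays, and the mean background centre of the groups was 105 to 109. The siRNA no. 1 arrays lay above every control array after normalization, with a log2 difference of 0.17 ± 0.06, and those of siRNA no. 2 overlapped control. Before normalization the siRNA no. 1 arrays overlapped control too, at 124 to 144 with siRNA no. 1 and 107 to 138 with control siRNA.

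ABCC4, also called MRP4, exports cyclic nucleotides, prostaglandins and nucleotide analogues and lies at chromosome 13, 95019835 to 95301451. Its signals in BE(2)-C were higher with siRNA no. 1 and lower with siRNA no. 2 than with control siRNA, and both of its probes gave this order. The main probe (ILMN_1788457) gave, in BE(2)-C, 571 and 600.0 at 42 h, 626 and 629 at 48 h, and 644 and 633 at 54 h with siRNA no. 1. It gave 338 and 315 at 42 h, 361 and 348 at 48 h, and 349.9 and 310.2 at 54 h with siRNA no. 2 and 506 and 419 at 42 h, 458 and 439 at 48 h, and 459 and 464 at 54 h with control siRNA. The 3 sets of arrays did not overlap. The log2 differences were 0.43 ± 0.06 with siRNA no. 1 and -0.44 ± 0.07 with siRNA no. 2, and 0.49 ± 0.07 and -0.39 ± 0.07 on the other probe (ILMN_2194009). The siRNAs differed from each other by 0.87 ± 0.06 on the main probe and 0.87 ± 0.06 on the other.

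In IMR-32 the groups overlapped for ABCC4. The main probe ranged over 392 to 503 with siRNA no. 1, 396 to 445 with siRNA no. 2 and 402 to 493 with control siRNA, with log2 differences of 0.02 ± 0.06 (95% interval -0.10 to 0.14) and -0.11 ± 0.06 (-0.22 to 0.01). Over the 18 centred group means both ABCC4 probes correlated at r = 0.926.

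**Figure D3:**
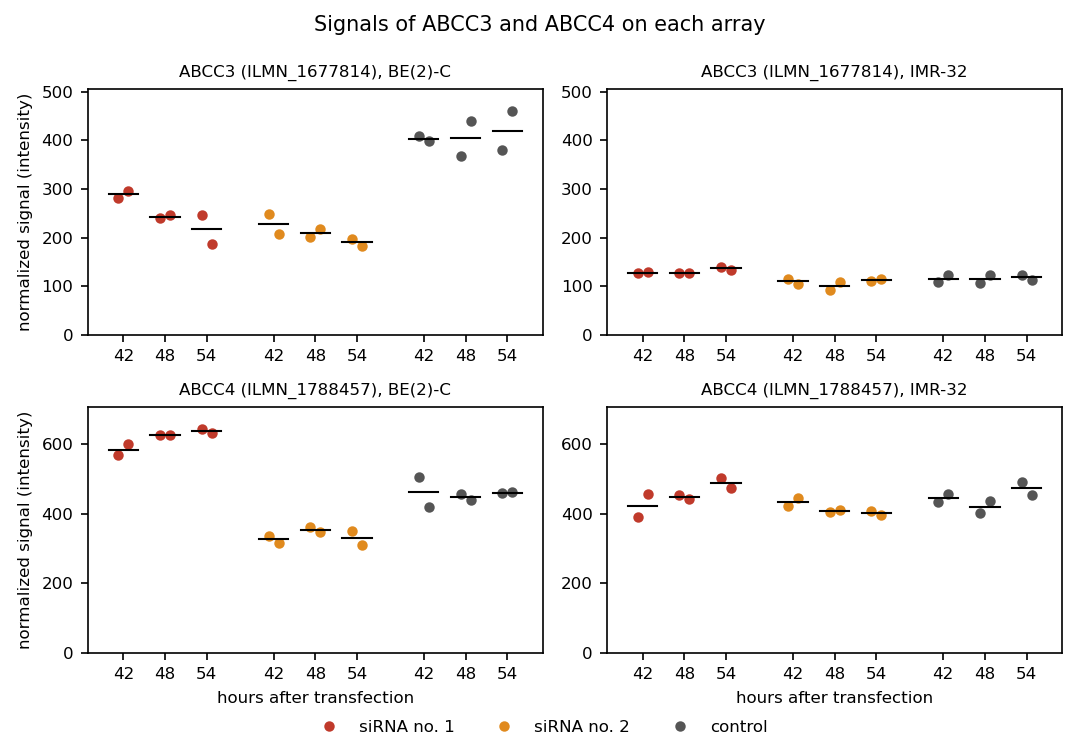
Normalized signal (linear intensity, from 0) of ABCC3 and of the main ABCC4 probe on each array, with siRNA no. 1, siRNA no. 2 and control siRNA from left to right and hours after transfection within each. Points are single arrays and lines are means of 2 arrays. In BE(2)-C (left) ABCC3 was below control with both siRNAs, and ABCC4 lay above control with siRNA no. 1 and below it with siRNA no. 2.

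ABCB1, the gene of P-glycoprotein at chromosome 7, 87503017 to 87713295, also parted the siRNAs in BE(2)-C. Its main probe (ILMN_1812070) gave there 2812 and 2957 at 42 h, 2841 and 2871 at 48 h, and 3113 and 2964 at 54 h with siRNA no. 1. It gave 1507 and 1503 at 42 h, 1399 and 1438 at 48 h, and 1374 and 1257 at 54 h with siRNA no. 2 and 1547 and 1511 at 42 h, 1543 and 1565 at 48 h, and 1760.4 and 1396 at 54 h with control siRNA. The siRNA no. 1 arrays lay far above all others, and siRNA no. 2 overlapped control. The log2 difference was 0.92 ± 0.07, a signal 1.89 times that of control, with siRNA no. 1 and -0.14 ± 0.07 with siRNA no. 2.

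The other ABCB1 probe (ILMN_2094875), designed on the same transcript record NM_000927, also placed siRNA no. 1 above siRNA no. 2, but here siRNA no. 2 stood apart from control. Its lowest, median and highest signals in BE(2)-C were 811, 1001 and 1151 with siRNA no. 1, 367, 426 and 474 with siRNA no. 2 and 630.1, 821 and 1352 with control siRNA. The siRNA no. 1 arrays overlapped control, and those of siRNA no. 2 lay below every control array. The log2 differences were 0.20 ± 0.09 and -1.01 ± 0.09. Between the siRNAs the probes gave 1.05 ± 0.06 on the main probe and 1.21 ± 0.07 on the other. One control array at 54 h, replicate 1, reached 1352 on ILMN_2094875, and without it the difference with siRNA no. 1 was 0.30.

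In IMR-32 the main ABCB1 probe was detected on 1 of 6 arrays with siRNA no. 1, 2 of 6 with siRNA no. 2 and 1 of 6 with control siRNA, and the other probe on none of the 18 arrays. The main probe ranged over 108 to 149, 109.8 to 132 and 107 to 142 in these groups, and no difference from control is read at this level.

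**Figure D4:**
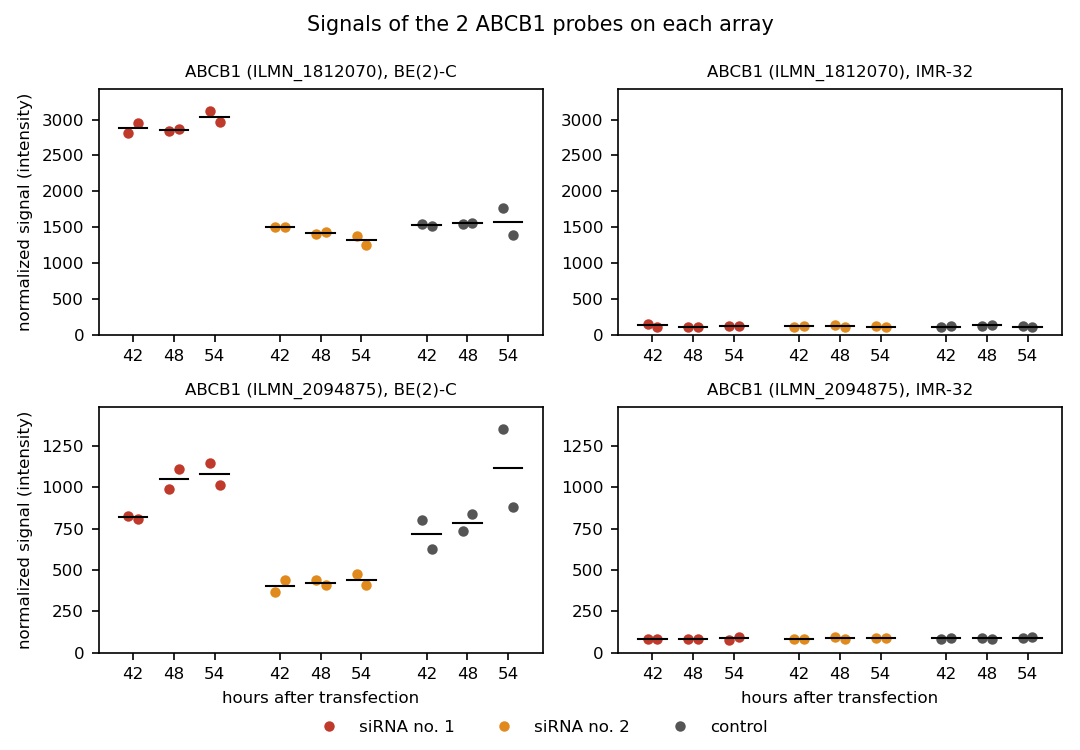
Normalized signal (linear intensity, from 0) of both ABCB1 probes on each array, with siRNA no. 1, siRNA no. 2 and control siRNA from left to right and hours after transfection within each. Points are single arrays and lines are means of 2 arrays. In BE(2)-C (left) siRNA no. 1 was above siRNA no. 2 on both probes, and in IMR-32 (right) all signals were at or near the background.

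ABCB6, ABCC10 and ABCC2 complete the set. ABCB6, an exporter of porphyrins and other substrates that carries the Lan blood group, lies at chromosome 2, 219209772 to 219218958. Its BE(2)-C signals (ILMN_2193980) were 932, 1059 and 1178 (lowest, median and highest) with siRNA no. 1, 666, 744 and 842 with siRNA no. 2 and 929, 1023 and 1096 with control siRNA. The siRNA no. 2 arrays lay below every control array and the siRNA no. 1 arrays overlapped them, with log2 differences of 0.06 ± 0.07 and -0.45 ± 0.07. In IMR-32 the signals were 668, 699.8 and 807 with siRNA no. 1, 559, 607 and 714 with siRNA no. 2 and 667, 731 and 784 with control siRNA, and the log2 differences were -0.01 ± 0.06 and -0.23 ± 0.06. All 6 siRNA no. 2 arrays of IMR-32 lay below the control mean, although their range overlapped that of control.

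ABCC10, also called MRP7, exports taxanes and vinca alkaloids and lies at chromosome 6, 43427541 to 43451994. In IMR-32 its signals (ILMN_1776119) were 157, 167 and 176 (lowest, median and highest) with siRNA no. 1, 130.3, 145 and 159 with siRNA no. 2 and 130.4, 142 and 152 with control siRNA. The siRNA no. 1 arrays lay above every control array, with a log2 difference of 0.24 ± 0.06, and siRNA no. 2 overlapped, with 0.05 ± 0.06. Both siRNAs overlapped control in BE(2)-C, with 0.03 ± 0.07 and -0.12 ± 0.08. ABCC2, also called MRP2, exports conjugates into bile and lies at chromosome 10, 99782640 to 99852594. Its probe (ILMN_1676278) was detected on none of the 36 arrays, so no difference is read from it.

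Set against each other, the siRNAs gave log2 differences of one sign in both lines for several members, stated here as a description. With siRNA no. 1 against siRNA no. 2, ABCB6 gave 0.51 ± 0.07 in BE(2)-C and 0.22 ± 0.06 in IMR-32, and ABCC10 gave 0.15 ± 0.07 and 0.19 ± 0.06. ABCC3 gave 0.25 ± 0.07 in BE(2)-C and was at least 1.14-fold higher with siRNA no. 1 in IMR-32, where no array with siRNA no. 2 detected it. This bound sets the mean with siRNA no. 1 against the lowest signal detected on each siRNA no. 2 array, or the probe's own where higher. The mean with siRNA no. 1 covers 6 arrays, of which 5 detected the probe. Only ABCC5 had values below 0 in both lines, on its main probe, while its probe ILMN_1651964 had values above 0 in both. The median log2 difference of the 7 genes between the siRNAs was 0.25 in BE(2)-C and 0.13 in IMR-32.

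In cells with control siRNA, several transporters differed between the lines. By limma over the 12 control arrays with Benjamini-Hochberg adjustment, 5 of 7 members were higher in BE(2)-C than in IMR-32 and 0 lower, beside 39.8% of all genes past the threshold, 18.9% higher and 20.8% lower. ABCB1 gave 1396, 1545 and 1760.4 (lowest, median and highest) in BE(2)-C and 107, 121 and 142 in IMR-32 on its main probe, a log2 difference of 3.69 ± 0.07 (adjusted p = 6.13e-22, higher on 6 of 6 arrays), with 1 of 6 IMR-32 arrays detecting it. Measured against the lowest signal detected on each IMR-32 array, where the probe's own was lower, it was at least 12.7-fold higher in BE(2)-C. Its other probe, not well above background on any IMR-32 control array, was at least 7.45-fold higher in BE(2)-C (adjusted p = 2.69e-19), bounded in the same way. ABCC3 gave 368, 404 and 459.8 in BE(2)-C and 107, 118 and 124 in IMR-32, where 1 of 6 arrays detected it, with a log2 difference of 1.81 ± 0.07 (adjusted p = 4.20e-16) and a bound of at least 3.44-fold higher. The fitted differences of ABCB1 and ABCC3 are thus against IMR-32 signals mostly not well above background.

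ABCC5 passed the test between the lines on its main probe and not on ILMN_1651964, while its dim probe ILMN_2302358, detected on 1 of 6 BE(2)-C and 0 of 6 IMR-32 control arrays, is not read here. The main probe gave 730.5, 954 and 1025 in BE(2)-C and 331, 424 and 500.0 in IMR-32, without overlap and with a log2 difference of 1.12 ± 0.07 (limma, adjusted p = 5.76e-12). ILMN_1651964 gave 334, 399.9 and 482 in BE(2)-C and 346, 384 and 434 in IMR-32, a log2 difference of 0.10 ± 0.08 (adjusted p = 0.467, 95% interval -0.06 to 0.26). Without control replicate 2 at 54 h in BE(2)-C that difference was 0.18 and passed the test (adjusted p = 0.0328), while with quantile normalization per line it was -0.094. ABCB6 was higher in BE(2)-C by 0.49 ± 0.06 (adjusted p = 7.50e-07), with 929 to 1096 in BE(2)-C and 667 to 784 in IMR-32. ABCC10 was higher by 0.24 ± 0.07 (adjusted p = 0.011), a call lost with quantile normalization per line (adjusted p = 0.0746), with median scaling (0.0962) and without IMR-32 control replicate 2 at 54 h (0.0505).

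ABCC4 gave 419 to 506 in BE(2)-C and 402 to 493 in IMR-32 on its main probe, with a log2 difference of 0.04 ± 0.06 (limma, adjusted p = 0.793, 95% interval -0.10 to 0.17). Its sign turned with quantile normalization per line and with median scaling. The other ABCC4 probe was lower in BE(2)-C, with a log2 difference of -0.24 ± 0.06 (adjusted p = 0.00379). Slide and scan were not analysed here, so a batch that follows the lines cannot be told apart from them.

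**Figure D5:**
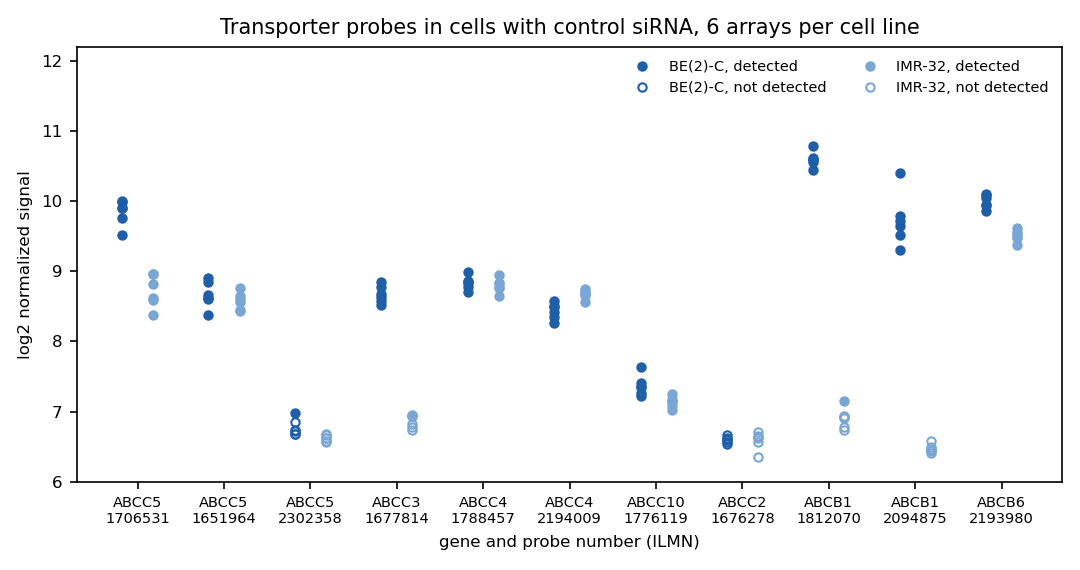
Log2 normalized signal of the 11 probes on the 6 control siRNA arrays of BE(2)-C (dark) and of IMR-32 (light). Filled points were detected on their array and open points were not. ABCB1 and ABCC3 were detected on 6 of 6 BE(2)-C arrays on every probe, and on at most 1 of 6 IMR-32 arrays.

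Between 42 and 54 h in control cells, 0 of 7 members passed the test on their main probe in BE(2)-C, where 6.46% of all genes did, 2.19% higher and 4.28% lower, and 0 of 7 in IMR-32, where 0 of 47320 probes did and 1611 had an unadjusted p under 0.05. At an unadjusted p under 0.05 there were 1 of 7 members in BE(2)-C and 0 of 7 in IMR-32. On probe ILMN_2094875, ABCB1 rose in BE(2)-C to 1352 and 884 at 54 h, against 803 and 630 at 42 h, a log2 difference of 0.62 ± 0.15 (limma, adjusted p = 0.0174). The call was lost without control replicate 1 at 54 h (log2 difference 0.31, adjusted p = 0.340) and without replicate 2 at 42 h (0.45, adjusted p = 0.290), and the main ABCB1 probe gave 0.04 ± 0.12 (adjusted p = 0.944). The main ABCC5 probe gave -0.29 ± 0.12 in BE(2)-C (adjusted p = 0.259), and -0.48 without control replicate 2 at 54 h, when it passed (adjusted p = 0.0164). Its BE(2)-C control signals were 730.5 and 955 at 54 h, against 1025 and 1018 at 42 h.

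Of the 37 other ABC genes measured, 14 were detected on 18 or more of the 36 arrays. By limma, 5 rose and 3 fell in BE(2)-C with siRNA no. 1, 0 rose and 3 fell in BE(2)-C with siRNA no. 2, 3 rose and 3 fell in IMR-32 with siRNA no. 1, and 2 rose and 2 fell in IMR-32 with siRNA no. 2. These are 21.6%, 8.11%, 16.2% and 10.8% of the 37, beside 24.4%, 13.9%, 24.1% and 13.3% of all genes. No gene among them passed in 1 direction with both siRNAs of a cell line.

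Among the other ABCC genes, which include regulators of potassium channels, 1 of 5 measured genes passed in each contrast. ABCC9, the SUR2 subunit of potassium channels gated by ATP, gave 319, 349.7 and 362 (lowest, median and highest) with siRNA no. 1, 195, 217 and 236 with siRNA no. 2 and 248, 276 and 308 with control siRNA in BE(2)-C. It rose with siRNA no. 1 (0.33 ± 0.07, adjusted p = 0.0011) and fell with siRNA no. 2 (-0.36 ± 0.08, adjusted p = 0.00268), the same order as ABCC4. ABCC9 was detected on no IMR-32 array. ABCC8, the SUR1 subunit of such channels, gave 208, 279.8 and 316 with siRNA no. 1, 134, 148 and 166 with siRNA no. 2 and 155, 167 and 184 with control siRNA in IMR-32. It rose with siRNA no. 1 (0.71 ± 0.06, adjusted p = 1.17e-10) and fell with siRNA no. 2 (-0.18 ± 0.06, adjusted p = 0.0465), and the call with siRNA no. 2 was lost with normexp background correction, at -0.23, and without any of 10 single arrays, at -0.20 to -0.16.

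Of 4 other exporters of drugs and bile salts none was detected on 18 or more arrays. ABCB4, the phospholipid floppase of bile, and ABCB5 were each detected on 0 of 36 arrays, and no difference is read from them. Of 28 remaining ABC genes, ABCG1, an exporter of cholesterol, rose in BE(2)-C with siRNA no. 1 (0.43 ± 0.07, adjusted p = 2.10e-05) and fell with siRNA no. 2 (-0.89 ± 0.08, adjusted p = 4.40e-08). Its signals there were 389, 439 and 480.2 with siRNA no. 1, 137, 175 and 214 with siRNA no. 2 and 299, 316 and 364 with control siRNA, with no overlap between the 3 sets. ABCA12, a lipid transporter of the skin, rose in BE(2)-C with siRNA no. 1 (0.93 ± 0.07, adjusted p = 2.16e-09). With siRNA no. 2 it gave -0.11 ± 0.08, which was not past the threshold. ABCA12 was detected on no IMR-32 array. In IMR-32, ABCG1 was detected on 3, 0 and 1 of 6 arrays with siRNA no. 1, siRNA no. 2 and control siRNA.

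The ABCC exporters act on conjugates that the glutathione pathway makes. Of 25 measured genes of glutathione synthesis and conjugation, 4 rose and 5 fell in BE(2)-C with siRNA no. 1, 0 rose and 3 fell in BE(2)-C with siRNA no. 2, 6 rose and 3 fell in IMR-32 with siRNA no. 1, and 1 rose and 4 fell in IMR-32 with siRNA no. 2. All genes passed at 24.4%, 13.9%, 24.1% and 13.3% in these contrasts. The median log2 differences of the 25 genes were 0.04, 0.00, 0.03 and -0.01. MGST2, a microsomal glutathione transferase, was the single gene that passed in 1 direction with both siRNAs of a line. It fell in BE(2)-C with siRNA no. 1 (-0.52 ± 0.07, adjusted p = 2.05e-06) and with siRNA no. 2 (-0.25 ± 0.07, adjusted p = 0.0326). Its signals were 755, 859.6 and 940.3 with siRNA no. 1, 917, 1044 and 1128 with siRNA no. 2 and 1059, 1216 and 1326 with control siRNA, and only siRNA no. 1 did not overlap control. The call with siRNA no. 2 was lost with normexp background correction, at -0.25, and without any of 6 single arrays, at -0.23 to -0.21. MGST2 was detected on no IMR-32 array.

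ABCB6 carries porphyrins, the intermediates of heme. Of 12 measured genes of heme synthesis, 3 rose and 2 fell in BE(2)-C with siRNA no. 1, 3 rose and 4 fell in BE(2)-C with siRNA no. 2, 6 rose and 1 fell in IMR-32 with siRNA no. 1, and 2 rose and 4 fell in IMR-32 with siRNA no. 2. The shares of all genes were again 24.4%, 13.9%, 24.1% and 13.3%. The median log2 differences of the 12 genes were 0.02, 0.04, 0.12 and -0.05. SLC25A38, the mitochondrial carrier that brings glycine to heme synthesis, rose in IMR-32 with siRNA no. 1 (0.25 ± 0.06, adjusted p = 0.00124) and siRNA no. 2 (0.34 ± 0.06, adjusted p = 7.58e-05). Its signals were 308, 339.8 and 374 with siRNA no. 1, 339, 363 and 373 with siRNA no. 2 and 261, 285 and 307 with control siRNA, and neither siRNA overlapped control.

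The genes whose pattern lay closest to the main probes of ABCC5 and ABCC3 were ranked by Pearson correlation of log2 values over the 18 group means, each centred on its cell line, among probes detected on all 36 arrays. For the main ABCC5 probe they were RRP12 (r = 0.937), ATXN7L2 (0.919) and XPO4 (0.915) of 7798 candidates. This ranking holds for that probe only, which correlated with the other ABCC5 probes at r = 0.244 and 0.157. For ABCC3 the closest genes were LIPA (r = 0.934), TMEM120A (0.931) and ANAPC16 (0.906) of 7799. The 18 points share control arrays and one normalization, so these values only rank the candidates. For ABCC3, 9 of the points are IMR-32 means in which its probe was detected on 5 of 6 arrays with siRNA no. 1, 0 of 6 with siRNA no. 2 and 1 of 6 with control siRNA.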

How the data were processed

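Biotin-labelled cRNA was hybridized by the authors to Illumina HumanHT-12 bead arrays, and the deposited intensities are averages of the beads of a probe after beads over 2.5 MAD from the median had been removed. For the background step and the software, no version or setting was found in the sources. The deposited detection p-value of each probe served for calls of detection. Of 47323 probes, 3 with blank or 0 cells were left out. The 36 arrays were quantile-normalized, taken as log2 and fitted with limma 3.58.1 in R 4.3.3, per siRNA and cell line over 12 arrays and 6 groups of siRNA and time, and for lines and times in control cells over the 12 control arrays. Contrasts averaged the 3 times, and p-values were adjusted by Benjamini-Hochberg over 47320 probes at a threshold of 0.05. The scripts were tested on simulated data. A deposited table of intensities normalized between arrays by the authors served as an alternative, after log2. Probes were named through the platform annotation, with 30112 having 1 symbol, 8 several and 17200 none, and 30073 Entrez IDs matched RefSeq. Members and lists were chosen with earlier results of these data known. All members were named. Of each other list, up to 4 genes past the threshold in 1 direction with both siRNAs of a line were named, or, with none, up to 2 with the largest change. The number of arrays limits the precision.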

Additional observations from a re-analysis of the deposited data

Results flagged for a closer look

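With siRNA no. 1, ABCC3 lay on opposite sides of control in the cell lines, which is why it was marked for a second look. The log2 difference from control was -0.72 in BE(2)-C, where all 6 arrays lay below the control mean, and 0.17 in IMR-32, where all 6 lay above it. The IMR-32 value ranged over 0.14 to 0.23 under the processing alternatives given below. With siRNA no. 2, all 6 IMR-32 arrays lay below the control mean, although their range overlapped that of control. The difference between the lines was not tested. In IMR-32 the probe was detected on 5 of 6 arrays with siRNA no. 1 and on 1 of 6 with control siRNA. Its normalized signals were 126 to 140.0 and 107 to 124, near the mean background centres of 105 and 109. Before normalization they overlapped, at 124 to 144 and 107 to 138.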

How the results depend on the processing

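Alternatives were median scaling, normexp background correction, quantile normalization per cell line, the authors' normalized values, a filter on detected probes, a trended robust prior, the replicate number as a block, the other probe of each gene and leaving out each array in turn. In control BE(2)-C against IMR-32, ABCC5 (ILMN_1651964) turned to -0.094 with quantile normalization per line and -0.060 with median scaling, and ABCC4 (ILMN_1788457) to -0.15 and -0.12, and ranged over -0.0095 to 0.081 when single arrays were left out, lowest without BE(2)-C control replicate 1 at 42 h. The median log2 difference of the members in BE(2)-C was -0.29 with detected probes only and -0.39 with the other probe of each gene, against -0.14, for siRNA no. 2 against control, and 0.38 and 0.51, against 0.25, for siRNA no. 1 against siRNA no. 2. With the other probe of each gene, members lower in BE(2)-C than in IMR-32 numbered 1, against 0, and members higher at 54 h in BE(2)-C controls 1, against 0. Leaving out single arrays, members lower at 54 h in BE(2)-C controls ranged over 0 to 1. Deviations of same-numbered replicates correlated at r = -0.04 to 0.21 and the labels give them no shared origin, so they were not treated as pairs, and the replicate block left the counts of members between lines and times as they were, with 5 above and 0 below between the lines. The time call of ABCB1 (ILMN_2094875) was lost with median scaling (adjusted p = 0.0932) and normexp (0.0534), at log2 differences of 0.64 with both. The cause of these changes was not tested. Probes near the background, ABCC2, ABCC5 (ILMN_2302358) and, in IMR-32, ABCB1 and ABCC3, hold little more than a bound.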

Other observations

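Of 12 measured regulators of ABC transporter genes, 1 rose and 3 fell with siRNA no. 1 in BE(2)-C, 1 rose and 1 fell with siRNA no. 2 in BE(2)-C, 1 rose and 3 fell with siRNA no. 1 in IMR-32, and 2 rose and 1 fell with siRNA no. 2 in IMR-32 (limma, adjusted p under 0.05), beside 24.4%, 13.9%, 24.1% and 13.3% of all genes that passed in either direction. RXRA, the partner of nuclear receptors that control several transporter genes, was the only gene of the list that passed in 1 direction with both siRNAs of a line, and it did so in both lines. In BE(2)-C its lowest, median and highest signals were 289.6, 295 and 352 with siRNA no. 1, 409, 511 and 606 with siRNA no. 2 and 480.3, 603 and 708 with control siRNA. It fell there with siRNA no. 1 (-0.99 ± 0.07, adjusted p = 1.74e-10) and with siRNA no. 2 (-0.26 ± 0.07, adjusted p = 0.0244). In IMR-32 they were 393, 429 and 447 with siRNA no. 1, 389, 409 and 433 with siRNA no. 2 and 413, 501 and 516 with control siRNA, and it fell with siRNA no. 1 (-0.19 ± 0.06, adjusted p = 0.0198) and with siRNA no. 2 (-0.25 ± 0.06, adjusted p = 0.00506). The call with siRNA no. 2 in BE(2)-C was lost with normexp (adjusted p = 0.0674) and without any of 5 single arrays, and that with siRNA no. 1 in IMR-32 with median scaling (0.0786), with normexp (0.0605) and without any of 5 single arrays.

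Of 8 measured markers of adrenergic neuroblasts, 3 rose and 0 fell with siRNA no. 1 in BE(2)-C, 4 rose and 0 fell with siRNA no. 2 in BE(2)-C, 4 rose and 0 fell with siRNA no. 1 in IMR-32, and 3 rose and 1 fell with siRNA no. 2 in IMR-32, beside the same shares of all genes. DBH, the enzyme that makes noradrenaline, rose in BE(2)-C with siRNA no. 1 (0.63 ± 0.07, adjusted p = 4.66e-07) and with siRNA no. 2 (0.68 ± 0.08, adjusted p = 4.51e-06). In IMR-32 its signals were 115 to 165 with siRNA no. 1, 101 to 119 with siRNA no. 2 and 117 to 148 with control siRNA, detected on 5 of 6, 0 of 6 and 6 of 6 arrays. It did not pass there with siRNA no. 1 (0.08 ± 0.06, adjusted p = 0.481) and was at least 1.17-fold lower with siRNA no. 2 (limma, adjusted p = 3.28e-04). CHGA, the secretory granule protein chromogranin A, rose in IMR-32 with siRNA no. 1 (0.29 ± 0.06, adjusted p = 1.35e-04) and with siRNA no. 2 (0.56 ± 0.06, adjusted p = 1.47e-08). In BE(2)-C, CHGA signals were 14345 to 16741 with siRNA no. 1, 18244 to 21226 with siRNA no. 2 and 14088 to 17261 with control siRNA. There siRNA no. 1 overlapped control and siRNA no. 2 lay above it. MYCN had probes that gave different calls. Its main probe (ILMN_2219767) rose in IMR-32 with siRNA no. 2 (0.18 ± 0.06, adjusted p = 0.0419) and was not past the threshold in the other 3 contrasts. Its other probe (ILMN_1653761) fell in BE(2)-C with siRNA no. 1 (-0.39 ± 0.08, adjusted p = 5.86e-04) and rose in IMR-32 with siRNA no. 1 (0.27 ± 0.07, adjusted p = 0.00281), while siRNA no. 2 gave -0.18 ± 0.08, adjusted p = 0.232, in BE(2)-C and 0.17 ± 0.06, adjusted p = 0.122, in IMR-32.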
